A study of Mus musculus with 42 samples.

Results

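The difference described here is the effect of Chd8 loss in c-Kit+ spermatogonia minus the effect of Chd8 loss in Thy1+ spermatogonia, taken gene by gene on the log2 scale. It was computed for every gene with enough reads in the RNA-seq count table, which left 18002 of 27179 genes. The tested genes were not chosen by their response, and 17423 of them had a symbol. Many genes named below were chosen for a low p of this difference, and the lists were chosen with earlier results of these data known. A value above 0 means that the mutant level relative to control was higher in c-Kit+ cells than in Thy1+ cells, and a value below 0 means the opposite. The difference alone does not say which of the populations moved. Population effects or levels are given beside it for many but not all named genes.

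The study removed the chromatin remodeler CHD8 from male germ cells and measured RNA of sorted spermatogonia by RNA-seq in 12 libraries, with 3 libraries in each of 4 groups. All mice were males on a C57BL/6J background at 10 dpp (days postpartum), and all carried the Ddx4-Cre transgene, which is active in the germ line. Controls were Ddx4-Cre; Chd8 +/F littermates, so they also carried a floxed allele and, where Cre had acted, a single intact copy. Mutants were Ddx4-Cre; Chd8 F/- (CHD8 CKO, conditional knockout). The cells were taken from testis suspensions with magnetic beads, first against c-Kit and then, from what passed through, against Thy1. Per the methods, 3 male pups were used for each analysis, which does not say whether a library came from a single pup or from pooled pups, so p-values measure the spread between these libraries. Totals of assigned reads ran from 32266861 to 45396233 per library.

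CHD8 is an ATP-dependent chromatin remodeler of the CHD family that binds active promoters. In the postnatal testis, Thy1 marks a population that contains undifferentiated spermatogonia, which include the stem cells that respond to GDNF through the receptor pair GFRA1 and RET. c-Kit is the receptor for stem cell factor and appears as spermatogonia differentiate under retinoic acid, on the way to the start of meiosis.

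Levels are given as CPM, the reads of a gene relative to the TMM-scaled total of its library, with the 3 libraries of a group in the order of their replicate numbers. Chd8 itself stood at 278, 272 and 259 CPM in Thy1+ control libraries, 298, 258 and 267 in Thy1+ CHD8 CKO libraries, 263, 305 and 274 in c-Kit+ control libraries, and 304, 316 and 297 in c-Kit+ CHD8 CKO libraries. The floxed exons are a small part of the gene, and a count over the whole gene does not show whether they were deleted. The transcript of the sorting antigen Thy1 was at 11.7 to 17.1 CPM in the 6 Thy1+ libraries and at 0.436 to 1.07 CPM in the 6 c-Kit+ libraries. Kit was at 171 to 432 CPM in the Thy1+ libraries and at 626 to 782 CPM in the c-Kit+ libraries, without overlap. Kit transcript was thus present in the Thy1+ libraries too, and the differences for Chd8 (0.10 ± 0.11 SE), Thy1 (0.16 ± 0.34) and Kit (0.02 ± 0.36) were within their errors, the last of these changing sign with the scaling.

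The question of this comparison is whether loss of Chd8 acted unequally in the populations. In edgeR's quasi-likelihood test no gene (0%) passed an FDR of 0.05 for the difference, the lowest FDR being 0.235. At an unadjusted p below 0.05 there were 1478 genes above 0 (8.21% of those tested) and 326 below 0 (1.81%). DESeq2 on the same counts called 44 genes above 0 and 20 below at an FDR of 0.05, and limma voom called 0 in either direction. Genes named below by an unadjusted p are therefore those with a low p among 12 libraries, and none of them passed correction in edgeR without a block. The tested genes had a median difference of 0.08 and 62.0% of them lay above 0. With the size factors of DESeq2 in place of TMM scaling the median was 0.00 and the share above 0 among genes with p below 0.05 went from 81.9% to 59.7%.

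The precision of the difference was limited by the replicate spread. Its median standard error was 0.24 on the log2 scale, and the 95% interval reached 0.53 to either side in the median gene. The interval lay within 0.5 of 0 for 5131 genes (28.5%) and within 1 of 0 for 10483 genes (58.2%). The biological coefficient of variation was 21.2% among Thy1+ libraries and 12.2% among c-Kit+ libraries. Adding the replicate number as a block shared by all 12 libraries gave 422 genes above 0 (2.34%) and 24 below (0.133%) at an FDR of 0.05, of which 405 had an unadjusted p below 0.05 without the block. A block within each population, with a level for each number and population, gave 1710 above (9.5%) and 202 below (1.12%). Same-numbered control and mutant libraries deviated together in Thy1+ cells, where all 3 correlations of their deviations from the group means were over 0.1 (0.241 to 0.448), and less so in c-Kit+ cells (0.083 to 0.107, 1 of 3 over 0.1). All 18 same-numbered pairs of libraries from different groups correlated above 0 (0.0049 to 0.448). A block counted as a pairing only where every correlation within it was over 0.1, so the number was not treated as one. Over all libraries the biological coefficient of variation was 17.5% without a block, 12.7% with the shared block and 9.15% with that within each population. The choice of the fit without a block, in which no gene passed, thus rested in part on this limit.

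**Figure D1:**
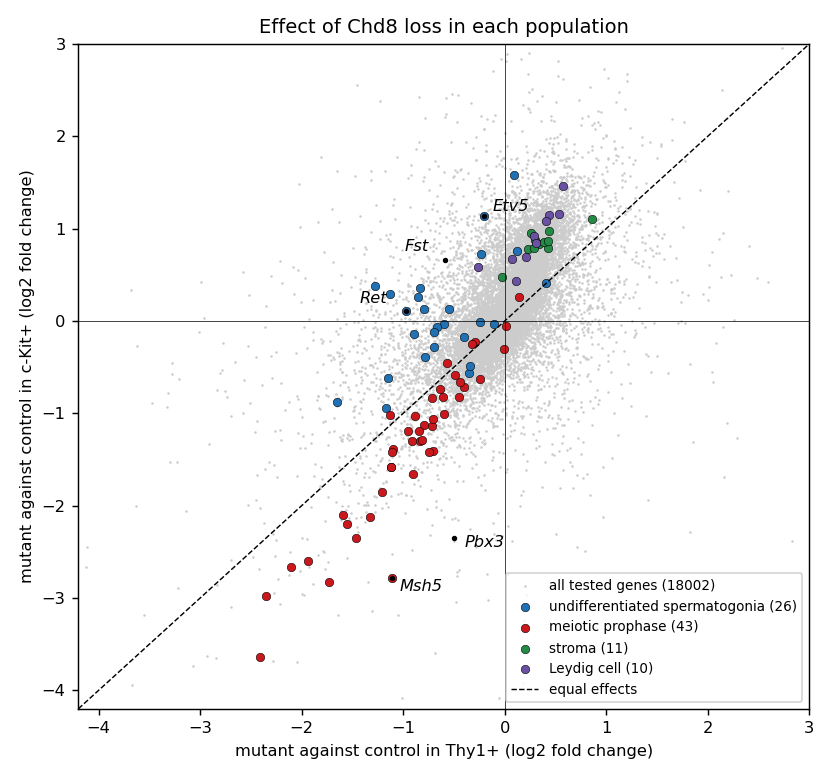
Log2 effect of Chd8 loss in Thy1+ cells (horizontal axis) against that in c-Kit+ cells (vertical axis) for 18002 tested genes, with the diagonal where both effects are equal. Grey points are all tested genes, and coloured points mark the tested members of 4 gene lists. These are undifferentiated spermatogonia (26), meiotic prophase (43), stroma (11) and Leydig cell (10), and 42 genes lie outside the plotted range.

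Taken by themselves, the population effects had very different numbers of calls. In Thy1+ cells 19 genes (0.106%) rose and 273 (1.52%) fell with Chd8 loss at an FDR of 0.05, and in c-Kit+ cells 3018 (16.8%) rose and 1519 (8.44%) fell. The 4327 genes called in c-Kit+ cells without a call in Thy1+ cells are not thereby shown to differ between the populations, since that takes the test of the difference, which no gene passed in edgeR without a block. Of the genes called in both populations, 191 fell in both, 19 rose in both and 0 moved in opposite directions. Among the 191 that fell in both, the median difference was -0.04, with 10 genes below 0 and 4 above 0 at an unadjusted p below 0.05. Of all tested genes 1.81% lay below 0 and 8.21% above 0 at that p.

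The 1478 genes above 0 were for the greater part genes whose mutant level was higher in c-Kit+ cells. In 991 of them only the c-Kit+ effect had an unadjusted p below 0.05 and pointed up, in 204 only the Thy1+ effect did and pointed down, in 29 both did in opposite directions, and in 171 both pointed up. The 326 genes below 0 were mostly lower in the c-Kit+ mutant, with 199 lower there alone, 67 lower in both populations and 26 higher in Thy1+ cells alone. A difference of log2 ratios can turn around when levels are subtracted instead, and 147 of the 1478 genes above 0 had the opposite sign as a difference of mean CPM, against 0 of the 326 below 0. All 9 mutant-to-control ratios in c-Kit+ cells were above all 9 in Thy1+ cells for 505 genes (2.81%) and below all 9 for 142 genes (0.789%).

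Genes of the undifferentiated state were the spermatogonial group with the most members above 0. Of 26 tested genes that mark undifferentiated spermatogonia, 23 had a difference above 0, 11 of them at an unadjusted p below 0.05, and none of the 3 below 0 reached it. Over all tested genes 62.0% lay above 0 and 8.21% did so at that p, and the median difference was 0.63 in the list beside 0.08 over all. The list's median effect was -0.68 in Thy1+ cells and -0.02 in c-Kit+ cells. At an FDR of 0.05 within a population, 7 members fell in Thy1+ cells, while in c-Kit+ cells 2 rose and 3 fell. Of all tested genes 1.52% fell in Thy1+ cells, and in c-Kit+ cells 16.8% rose and 8.44% fell. The summed level of the list was 1663, 1616 and 1280 CPM in Thy1+ control and 945, 1150 and 1007 CPM in Thy1+ CHD8 CKO libraries, without overlap, and 974 to 1004 CPM in c-Kit+ control and 860 to 887 CPM in c-Kit+ CHD8 CKO libraries.

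Ret, the signalling receptor for GDNF, was at 187, 153 and 107 CPM in Thy1+ control, 69.7, 82.7 and 75.1 in Thy1+ CHD8 CKO, 10.3, 10.6 and 11.9 in c-Kit+ control, and 10.2, 11.7 and 13.5 in c-Kit+ CHD8 CKO libraries. Every Thy1+ mutant library was below every Thy1+ control, whereas the c-Kit+ groups overlapped. Ret fell by 0.98 on the log2 scale in Thy1+ cells (edgeR FDR = 0.0179), the c-Kit+ effect was 0.11 (FDR = 0.675), and the difference was 1.09 ± 0.24 (SE, unadjusted p = 0.00069).

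Zbtb16, which encodes the stem cell maintenance factor PLZF, had a like pattern. It was at 240, 229 and 189 CPM in Thy1+ control and 125, 165 and 144 in Thy1+ CHD8 CKO libraries, and at 107, 114 and 105 in c-Kit+ control and 101, 115 and 102 in c-Kit+ CHD8 CKO libraries. The Thy1+ groups did not overlap and the c-Kit+ groups did, and the effects were -0.60 (FDR = 0.023) and -0.03 (FDR = 0.867), with a difference of 0.57 ± 0.16. Tcl1, a co-activator of AKT signalling, had effects of -1.13 (FDR = 0.0405) and 0.30 (FDR = 0.507), with a difference of 1.42 ± 0.39.

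Etv5, an ETS transcription factor downstream of GDNF and FGF signals, came to its difference from the other side. Its levels were 119, 89.6 and 83.5 CPM in Thy1+ control, 82.7, 75.5 and 96 in Thy1+ CHD8 CKO, 18.8, 18.1 and 14.7 in c-Kit+ control, and 44.1, 31.4 and 38.1 in c-Kit+ CHD8 CKO libraries. The Thy1+ groups overlapped and the c-Kit+ mutants were all above the c-Kit+ controls, although below every Thy1+ library. Etv5 rose by 1.14 in c-Kit+ cells (FDR = 0.00215) with an effect of -0.20 in Thy1+ cells (FDR = 0.507), so the difference was 1.34 ± 0.23 (unadjusted p = 6.6e-05, FDR = 0.235).

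Members of the list did not share a single pattern. Lin28a, an RNA-binding protein of undifferentiated cells, fell in both populations, by 1.17 in Thy1+ cells (FDR = 0.00647) and by 0.94 in c-Kit+ cells (FDR = 0.00266), and its difference of 0.23 ± 0.21 was about as large as its error. Pou5f1, the pluripotency factor OCT4, was at 12.3, 10.1 and 4.14 CPM in Thy1+ control and 2.15, 3.84 and 2.43 in Thy1+ CHD8 CKO libraries, and its difference was 0.78 ± 0.54. None of the mutant-to-control ratios of Pou5f1 was above 1 in Thy1+ or in c-Kit+ cells. A few feedback regulators of receptor tyrosine kinase signalling were looked at after their values were seen. Spry4 and Dusp4 rose in c-Kit+ cells, by 1.60 (FDR = 0.00182) and 1.15 (FDR = 0.00356), with differences of 1.38 ± 0.30 and 1.10 ± 0.30, while Il17rd had effects of -0.48 (FDR = 0.0539) in Thy1+ cells and 0.10 (FDR = 0.55) in c-Kit+ cells.

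**Figure D2:**
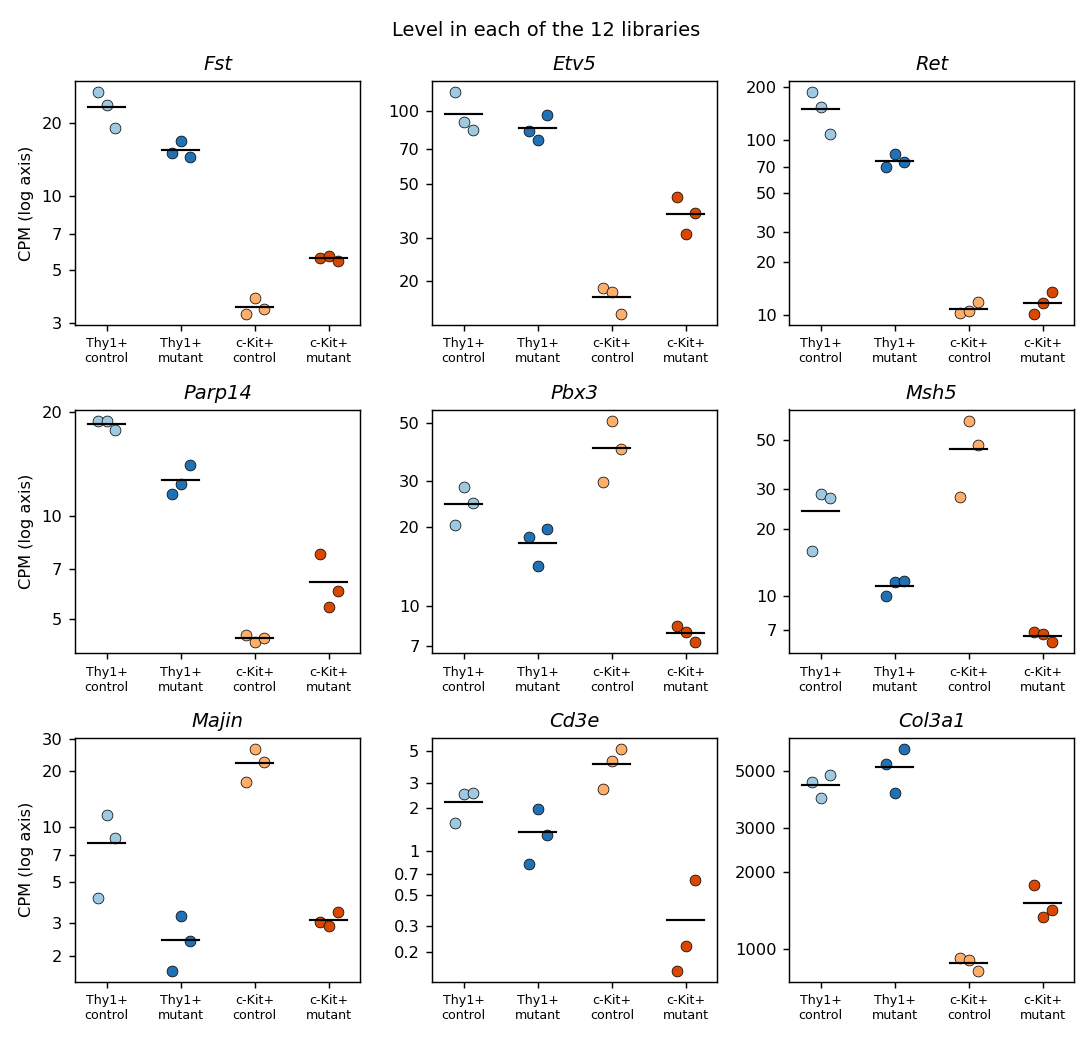
TMM-scaled CPM (log axis) of 9 genes in the 4 groups, with a point for each of the 3 libraries of a group and a line at the group's mean. Ret is lower in all Thy1+ mutant libraries (69.7 to 82.7 CPM) than in Thy1+ controls (107 to 187 CPM) with overlapping c-Kit+ groups, and Pbx3 is lower in the c-Kit+ mutants (7.27 to 8.35 CPM) than in any other library.

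Outside the lists, the lowest unadjusted p above 0 belonged to Fst, which encodes follistatin, a secreted antagonist of activin. Fst was at 26.9, 23.9 and 19.2 CPM in Thy1+ control, 15, 16.8 and 14.5 in Thy1+ CHD8 CKO, 3.29, 3.83 and 3.43 in c-Kit+ control, and 5.58, 5.67 and 5.44 in c-Kit+ CHD8 CKO libraries. Its groups did not overlap in either population and were ordered in opposite ways. The effect was -0.59 in Thy1+ cells (FDR = 0.0516), Fst rose by 0.66 in c-Kit+ cells (FDR = 0.0074), and the difference was 1.25 ± 0.20 (unadjusted p = 3.4e-05, FDR = 0.235).

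Large2, a glycosyltransferase that acts on dystroglycan, and Erbb3, a receptor of the EGF receptor family, were lower in the Thy1+ mutants. Large2 was at 86.5, 62.3 and 51.1 CPM in Thy1+ control and 34, 36.7 and 33.8 in Thy1+ CHD8 CKO libraries, and at 10.7, 9.78 and 9.12 in c-Kit+ control and 11.1, 12.7 and 14.7 in c-Kit+ CHD8 CKO libraries. It fell by 0.94 in Thy1+ cells (FDR = 0.0187), and Erbb3 fell there by 0.76 (FDR = 0.00995). Neither passed in c-Kit+ cells, where the effects were 0.38 (FDR = 0.123) and 0.12 (FDR = 0.473), and the differences were 1.32 ± 0.24 and 0.88 ± 0.16.

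Eml2, a microtubule-associated protein, Pygl, the liver form of glycogen phosphorylase, and Phf3, which binds RNA polymerase II, rose in c-Kit+ cells. Eml2 was at 10.3, 11.4 and 11.7 CPM in c-Kit+ control and 22.1, 21.2 and 22.4 in c-Kit+ CHD8 CKO libraries, against 25.5 to 30.7 in Thy1+ control and 25.6 to 33.4 in Thy1+ CHD8 CKO libraries. The c-Kit+ groups were apart while the Thy1+ groups overlapped. The c-Kit+ effects of Eml2, Pygl and Phf3 were 0.98 (FDR = 0.00165), 0.69 (FDR = 0.00273) and 0.62 (FDR = 0.0023), and their differences were 0.95 ± 0.17, 0.91 ± 0.16 and 0.69 ± 0.13. Igfbp5, which binds insulin-like growth factors, Parp14, an ADP-ribosyltransferase, and Rragd, a Rag GTPase of the amino acid sensing pathway, rose in c-Kit+ cells (0.44, 0.54 and 0.66) and had effects of -0.54, -0.55 and -0.66 in Thy1+ cells that missed an FDR of 0.05.

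Opposite movement of this kind was uncommon. In 54 tested genes (0.3%) all 9 mutant-to-control ratios were below 1 in Thy1+ cells and all 9 were above 1 in c-Kit+ cells, and in 6 genes (0.0333%) the reverse held.

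Pbx3, a TALE homeodomain cofactor of HOX proteins, had the lowest unadjusted p of all tested genes, and its difference lay below 0. It was at 20.4, 28.5 and 24.8 CPM in Thy1+ control, 18.2, 14.2 and 19.7 in Thy1+ CHD8 CKO, 29.6, 51 and 39.8 in c-Kit+ control, and 8.35, 7.96 and 7.27 in c-Kit+ CHD8 CKO libraries. All Thy1+ mutants were below all Thy1+ controls by a small margin, and the c-Kit+ mutants were far below every other library. Pbx3 fell by 2.35 in c-Kit+ cells (FDR = 0.000222), the Thy1+ effect was -0.50 (FDR = 0.198), and the difference was -1.86 ± 0.27 (unadjusted p = 1.6e-05, FDR = 0.235).

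Ctsw, a cathepsin of cytotoxic lymphocytes, was the only gene among the 10 lowest p below 0 whose 9 ratios were all above 1 in Thy1+ cells. It was at 3.89, 3.8 and 5.03 CPM in Thy1+ control, 6.38, 5.99 and 7.07 in Thy1+ CHD8 CKO, 1.63, 2.32 and 2.67 in c-Kit+ control, and 1.24, 0.779 and 0.492 in c-Kit+ CHD8 CKO libraries. Its difference was -2.01 ± 0.41. Another lymphocyte gene, the T-cell receptor subunit Cd3e, was examined after its values were seen and had the c-Kit+ control libraries at 2.71 to 5.17 CPM and the c-Kit+ mutants at 0.148 to 0.637 CPM, a fall of 3.60 (FDR = 0.002). Unlike for Ctsw, only 1 of the 9 Thy1+ ratios of Cd3e was above 1, and its difference was -2.91. Its neighbours and partners Cd3d and Cd3g were at no more than 0.145 CPM in any c-Kit+ library.

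Pparg, a nuclear receptor of lipid metabolism, fell by 1.67 in c-Kit+ cells (FDR = 0.002) from 6.79, 12.2 and 11.4 CPM to 2.6, 3.68 and 3.24 CPM, and its difference was -1.47 ± 0.32. Pde3b, a cyclic nucleotide phosphodiesterase, Luzp1, a cytoskeletal protein, and Baiap2, an adaptor between membrane and actin, fell in c-Kit+ cells by 0.65, 0.68 and 0.61, with Thy1+ effects of -0.01, -0.14 and -0.12. The c-Kit+ groups of these genes did not overlap, and the Thy1+ groups of Pde3b, Luzp1 and Baiap2 did. The remaining genes among the 10, Psd, Vwa7 and Tmx4, had Thy1+ effects between -0.05 and 0.02 and fell in c-Kit+ cells.

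**Figure D3:**
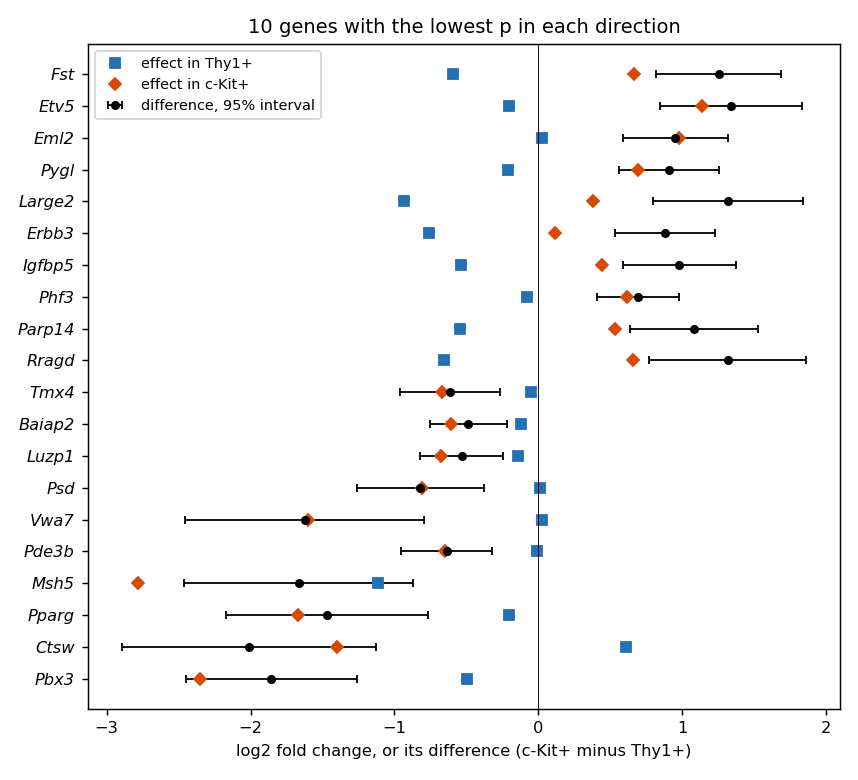
Log2 difference (c-Kit+ effect minus Thy1+ effect, black) with its 95% interval, and the effects in Thy1+ (blue) and c-Kit+ cells (orange), for the 10 genes with the lowest unadjusted p in each direction. The intervals of these genes, chosen for their low p, all leave out 0, from 1.34 for Etv5 among those above to -2.01 for Ctsw among those below.

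Genes of meiotic prophase lay below 0 as a group with small separate differences. Of 43 tested genes of recombination, cohesion and the synaptonemal complex, 38 had a difference below 0 and 5 above, and 3 of those below reached an unadjusted p of 0.05. Over all tested genes 6836 of 18002 lay below 0, and 1.81% did so at that p. The list's median difference was -0.39, from median effects of -0.84 in Thy1+ and -1.19 in c-Kit+ cells. At an FDR of 0.05, 12 members fell in Thy1+ and 36 fell in c-Kit+ cells, and 0 rose in either, while 1.52% and 8.44% of all tested genes fell. The summed level was 1908, 3380 and 2823 CPM in Thy1+ control and 1247, 2018 and 1397 in Thy1+ CHD8 CKO libraries, which overlapped, and 4037, 6139 and 5039 in c-Kit+ control and 2233, 2387 and 2184 in c-Kit+ CHD8 CKO libraries, which did not. The median moved from -0.12 without the replicate 2 library of Thy1+ CHD8 CKO to -0.67 without that of Thy1+ control, so its size rested on single Thy1+ libraries.

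Msh5, a MutS homolog that stabilises crossover intermediates, had the lowest unadjusted p of the list. It was at 16, 28.5 and 27.4 CPM in Thy1+ control, 10, 11.6 and 11.6 in Thy1+ CHD8 CKO, 27.8, 61 and 47.4 in c-Kit+ control, and 6.88, 6.77 and 6.2 in c-Kit+ CHD8 CKO libraries. The mutants were below the controls in both populations without overlap. Msh5 fell by 2.78 in c-Kit+ cells (FDR = 0.000525), the Thy1+ effect was -1.11 (FDR = 0.0532), and the difference was -1.67 ± 0.37 (unadjusted p = 0.00061, FDR = 0.336).

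Majin, which tethers telomeres to the nuclear envelope, and Dmc1, the meiotic strand exchange protein, were the other members at an unadjusted p below 0.05. Majin fell in both populations, by 1.73 in Thy1+ (FDR = 0.0285) and 2.83 in c-Kit+ cells (FDR = 0.00165), with a difference of -1.10 ± 0.47. Dmc1 was at 33.2, 66.4 and 54.1 CPM in Thy1+ control and 21.8, 32.2 and 28 in Thy1+ CHD8 CKO libraries, and at 81.9, 142 and 108 in c-Kit+ control and 35.8, 36.9 and 32.4 in c-Kit+ CHD8 CKO libraries, and its difference was -0.76 ± 0.34. For Prdm9, the methyltransferase that places recombination hotspots, the effects were -1.94 (FDR = 0.0353) and -2.60 (FDR = 0.00233), and the difference of -0.66 ± 0.54 was close to its error.

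The other meiotic genes that the study named had smaller differences relative to their errors. Rad21l and Stag3, both of meiotic cohesin, had differences of -0.88 ± 0.47 and -0.33 ± 0.32, Hormad1 and Hormad2, of the chromosome axis, -0.46 ± 0.41 and -0.48 ± 0.39, and Sycp1 and Sycp3, of the synaptonemal complex, -0.46 ± 0.31 and -0.39 ± 0.36. All of these fell in c-Kit+ cells, and none of them passed an FDR of 0.05 in Thy1+ cells. Stra8, the retinoic acid target that starts the meiotic programme, had effects of -0.53 (FDR = 0.34) and -0.61 (FDR = 0.144) and a difference of -0.08 ± 0.41.

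Near Msh5, on chromosome 17 of mm10, the neighbours Vwa7 and Sapcd1 were also lower in the c-Kit+ mutants. Vwa7 (chr17:35016579-35026741, plus strand) and Sapcd1 (chr17:35025959-35028016, minus strand) overlap by 783 bases, and Msh5 (chr17:35028605-35046723, minus strand) lies 588 bases further on. Vwa7 and Sapcd1 were at 2.3 to 3.89 and 1.49 to 3.49 CPM in c-Kit+ control and at 0.897 to 1.02 and 0.682 to 1.07 CPM in c-Kit+ CHD8 CKO libraries. Their differences were -1.62 ± 0.38 and -1.73 ± 0.49, close to that of Msh5, while the flanking Vars and Clic1 had differences of -0.01 and 0.57. The Thy1+ effects of Vwa7 and Sapcd1 were 0.02 and 0.215, against -1.11 for Msh5. Their c-Kit+ effects were -1.60 and -1.52, against -2.78 for Msh5. Reads were counted without strand, so reads of overlapping genes cannot be told apart, and Sapcd1 was looked at after its value was seen.

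Promoter windows were searched for the letter pattern bound by STRA8 and MEIOSIN, the transcription factors of meiotic entry. The pattern, CNCCTCAG on either strand, was present in 7.94% of 32851 promoter windows of 300 bases (250 before the start and 50 after it, RefSeq, GRCm38.p6). By gene it was in 10.9% of tested genes with a window (1468 of 13501), 9.26% of those above 0 (104 of 1123), 18.4% of those below 0 (45 of 244) and 25.7% of the meiotic list (9 of 35). Here the genes above and below 0 are those with an unadjusted p below 0.05, and no test was made between the shares. In all, 11 patterns were searched. CACGTG (E-box) was also in 25.7% of the meiotic list (9 of 35), against 11% of tested genes. TTTCCCGC (E2F) was in 17.1% of that list and 2.08% of tested genes, whereas CCGGAA (ETS) was in 11.4% and 26.6%. Among genes below 0, TTTNGCGC (E2F) was in 4.51%, against 2.54% of tested genes. A higher share was thus not particular to the STRA8 and MEIOSIN pattern. The windows of Msh5, the meiotic gene with the clearest difference, and of Prdm9, whose difference was close to its error, are shown (for Prdm9 the window with matches, since the window of its other annotated start held none) 5′ to 3′ on the gene's strand with the pattern in capitals.
Msh5 chr17:35046573-35046872 (minus strand): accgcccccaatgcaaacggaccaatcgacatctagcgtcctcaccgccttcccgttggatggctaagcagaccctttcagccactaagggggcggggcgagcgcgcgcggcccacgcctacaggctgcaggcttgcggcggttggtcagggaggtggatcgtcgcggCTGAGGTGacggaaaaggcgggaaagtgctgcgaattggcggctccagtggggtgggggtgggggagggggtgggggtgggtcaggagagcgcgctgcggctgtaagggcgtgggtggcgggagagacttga
Prdm9 chr17:15564305-15564604 (minus strand): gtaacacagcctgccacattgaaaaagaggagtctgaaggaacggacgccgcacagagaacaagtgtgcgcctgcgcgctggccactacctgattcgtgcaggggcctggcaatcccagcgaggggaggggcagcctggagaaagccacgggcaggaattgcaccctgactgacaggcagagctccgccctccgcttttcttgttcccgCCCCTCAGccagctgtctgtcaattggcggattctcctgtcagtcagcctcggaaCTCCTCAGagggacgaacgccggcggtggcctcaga
The Msh5 window holds the pattern once on the other strand, 82 bases before the start, and the Prdm9 window shown holds it 41 bases before and 14 bases after the start. The windows of Dmc1, Stag3 and Rad21l held no match to it, which says nothing about whether the factors bind there.

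Genes of differentiating spermatogonia leaned weakly below 0, with 12 of 18 below and a median of -0.14 that changed sign when a single Thy1+ library was left out. Only Ccnd2, a D-type cyclin, and Dnmt3a, a de novo DNA methyltransferase, had an unadjusted p below 0.05, both above 0, at 0.33 ± 0.11 and 0.26 ± 0.12. In DNA replication 31 of 34 genes lay below 0 with a median of -0.13, of which 3 reached an unadjusted p of 0.05. Over all tested genes 6836 of 18002 lay below 0. At that p, 1.81% lay below 0 and 8.21% above. Pcna, the sliding clamp, had a difference of -0.34 ± 0.12, and Rrm2, a ribonucleotide reductase subunit, of -0.57 ± 0.24. In the DNA damage response 21 of 26 lay below 0, where Mdc1, a scaffold at damaged chromatin, fell by 1.27 in c-Kit+ cells (FDR = 0.0017) and had a difference of -0.72 ± 0.23.

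In the CHD family 8 of 10 genes lay above 0 with a median of 0.10, and among genes of H3K4 methylation 10 of 20 did, with a median of 0.00. Over all tested genes 62.0% lay above 0, with a median of 0.08. Chd7, a remodeler of the same subfamily as Chd8, was at 67.6, 72.2 and 53.9 CPM in Thy1+ control and 31.8, 49.6 and 31.5 in Thy1+ CHD8 CKO libraries, and fell there by 0.78 (FDR = 0.0479), whereas its c-Kit+ effect was -0.11 (FDR = 0.682). Chd1 rose by 0.59 in c-Kit+ cells (FDR = 0.0152) with a Thy1+ effect of 0.06. Chd4 and Chd6 fell in both populations, with differences of 0.13 ± 0.09 and 0.10 ± 0.09. Setd1b, an H3K4 methyltransferase, rose in c-Kit+ cells from 28, 23.5 and 28.5 CPM to 49.8, 44.2 and 45.7 CPM, with overlapping Thy1+ groups and a difference of 0.84 ± 0.22. Kmt2a, another H3K4 methyltransferase, fell by nearly the same amount in both populations, 0.70 (FDR = 0.0132) and 0.71 (FDR = 0.00244), and the 95% interval of its difference of -0.01 ran from -0.35 to 0.33.

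In the piRNA pathway 16 of 21 genes lay above 0 with a median of 0.11, and Tdrd3, Tdrd5 and Piwil4 had an unadjusted p below 0.05. Among targets of p53, 13 of 20 were above 0, and Zmat3 and Sesn1 rose in c-Kit+ cells by 0.81 and 0.51. Over all tested genes 62.0% lay above 0 and 8.21% did so at an unadjusted p below 0.05, with a median of 0.08. The p53 list, with 10% above 0 at that p and a median of 0.10, was near these values. Wnt targets (9 of 16 above 0), heat shock genes (9 of 16), ribosomal protein genes (49 of 85) and genes of oxidative phosphorylation (40 of 78) had medians between 0.01 and 0.04, which changed sign under another scaling.

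**Figure D4:**
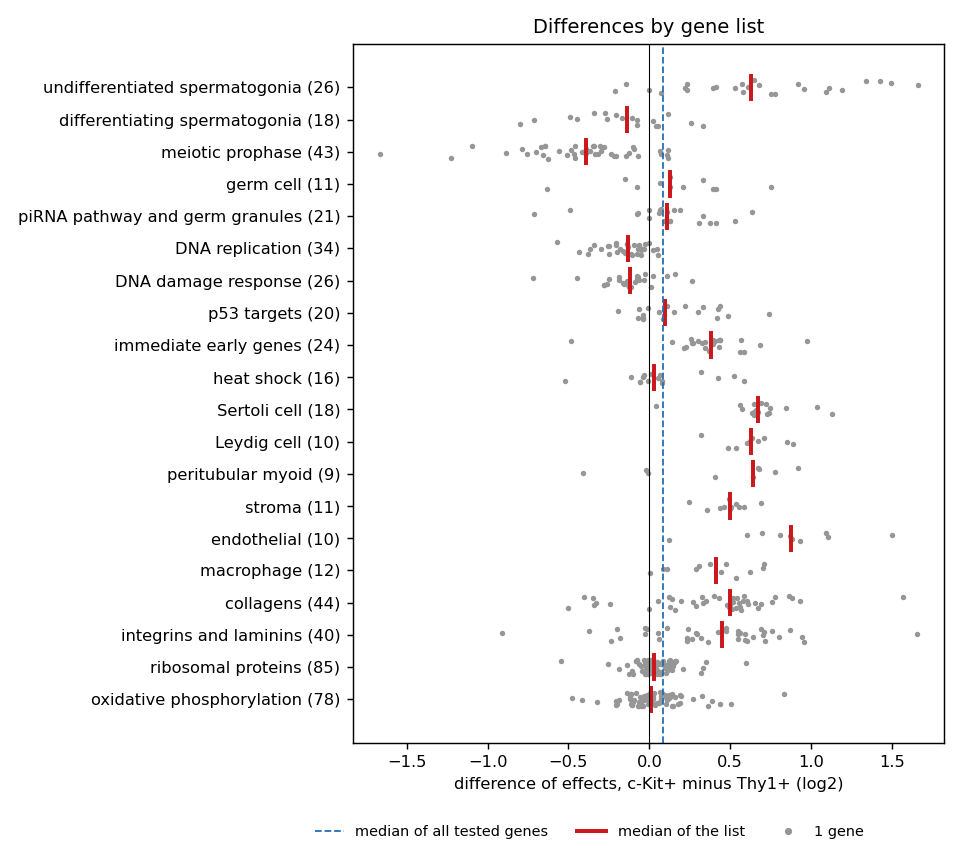
Log2 difference of every tested member of each gene list (points) with the list's median (line), beside the median of 0.08 over all tested genes. Undifferentiated genes centre at 0.63 and meiotic genes at -0.39, and the medians of the Sertoli, Leydig, myoid, stromal, endothelial and macrophage lists lie between 0.41 and 0.87.

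Most markers of somatic testis cells also had a difference above 0, as did 62.0% of all tested genes. The counts and summed levels of Sertoli cell markers include Dmrt1, which was also in the list of differentiating spermatogonia. All 18 Sertoli cell, 10 Leydig cell, 11 stromal, 10 endothelial and 12 macrophage markers tested had a difference above 0, with medians of 0.67, 0.63, 0.50, 0.87 and 0.41, and so did 6 of 9 markers of peritubular myoid cells, while with the size factors of DESeq2 this held for 17 of the Sertoli cell and 11 of the macrophage markers. At an unadjusted p below 0.05 there were 1, 3, 2, 3, 0 and 3 of them, in the same order, and the Sertoli cell and macrophage counts were thus not above the 8.21% of all tested genes. In c-Kit+ cells 3 Sertoli, 5 Leydig, 10 stromal, 9 endothelial, 3 macrophage and 5 myoid markers rose at an FDR of 0.05, where 16.8% of all tested genes rose, a share that the 3 of 18 Sertoli cell markers did not exceed. In a bulk sample, more cells of a type and more RNA per cell cannot be told apart.

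The summed level of the stromal markers was 11929 to 15600 CPM in Thy1+ control, 13436 to 20701 in Thy1+ CHD8 CKO, 1917 to 2411 in c-Kit+ control, and 3492 to 4613 in c-Kit+ CHD8 CKO libraries. The c-Kit+ groups did not overlap and the Thy1+ groups did. As a difference of mean CPM, 10 of 11 stromal, 8 of 9 myoid and 11 of 12 macrophage markers lay below 0. Their summed levels were several times higher in Thy1+ cells. Endothelial markers were also higher there (214 to 285 against 74.9 to 110 CPM in the controls), but 9 of 10 stayed above 0. All 18 Sertoli and 10 Leydig markers stayed above 0 too. The collagen gene Col3a1 was at 4556, 3914 and 4832 CPM in Thy1+ control, 5331, 4099 and 6114 in Thy1+ CHD8 CKO, 920, 903 and 822 in c-Kit+ control, and 1786, 1339 and 1424 in c-Kit+ CHD8 CKO libraries. It rose by 0.78 in c-Kit+ cells (FDR = 0.0035), and its difference was 0.56 ± 0.20 on the log2 scale but -113 as a difference of mean CPM. Collagens as a family had 37 of 44 genes above 0 on the log2 scale and 29 of 44 below 0 on the CPM scale. Over all tested genes 62.0% lay above 0 on the log2 scale and 8340 of 18002 below 0 on the CPM scale.

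The steroidogenic genes of Leydig cells went the same way on both scales. Hsd3b1 was at 87.3, 73.9 and 98.9 CPM in Thy1+ control, 90.8, 110 and 151 in Thy1+ CHD8 CKO, 221, 210 and 299 in c-Kit+ control, and 577, 426 and 611 in c-Kit+ CHD8 CKO libraries. It rose by 1.14 in c-Kit+ cells (FDR = 0.00294), with a difference of 0.71 ± 0.28. Lhcgr, the receptor for luteinising hormone, and Cyp11a1, which starts steroid synthesis, had differences of 0.67 ± 0.29 and 0.64 ± 0.28. Tek, the endothelial receptor for angiopoietins, had a difference of 1.10 ± 0.24, with 3.75 to 4.59 CPM in c-Kit+ control and 8.92 to 11.6 CPM in c-Kit+ CHD8 CKO libraries.

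Sertoli cell markers set apart the replicate 1 libraries of Thy1+ cells. Their summed level was 4010, 1341 and 1379 CPM in Thy1+ control, 5024, 2091 and 2143 in Thy1+ CHD8 CKO, 2978, 1441 and 2174 in c-Kit+ control, and 4333, 4372 and 4637 in c-Kit+ CHD8 CKO libraries. The c-Kit+ mutants were above every c-Kit+ control, and the highest libraries of the Thy1+ groups were both of replicate 1. The median difference of the list went from -0.40 without the replicate 1 library of Thy1+ control to 1.35 without that of Thy1+ CHD8 CKO, and was 0.33 without both. Without both, undifferentiated genes still had 23 of 26 above 0 with a median of 0.39, 7 of them at an unadjusted p below 0.05, and meiotic genes had 39 of 43 below 0 with a median of -0.27.

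Germ cell markers had a summed level of 2075 to 3097 CPM in Thy1+ control, 1528 to 2528 in Thy1+ CHD8 CKO, 3417 to 4058 in c-Kit+ control, and 2590 to 2993 in c-Kit+ CHD8 CKO libraries. Of 11 tested, 8 lay above 0 with a median of 0.13, beside 62.0% and 0.08 over all tested genes, and Dppa4 had an unadjusted p below 0.05. Markers of mast cells (4 of 7 above 0) and of red blood cells (2 of 5) had no member at an unadjusted p below 0.05, and the summed level of the latter was 1.79 to 7.88 CPM over all libraries. The part of these marker levels in the differences of the spermatogonial and meiotic genes was not tested.

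**Figure D5:**
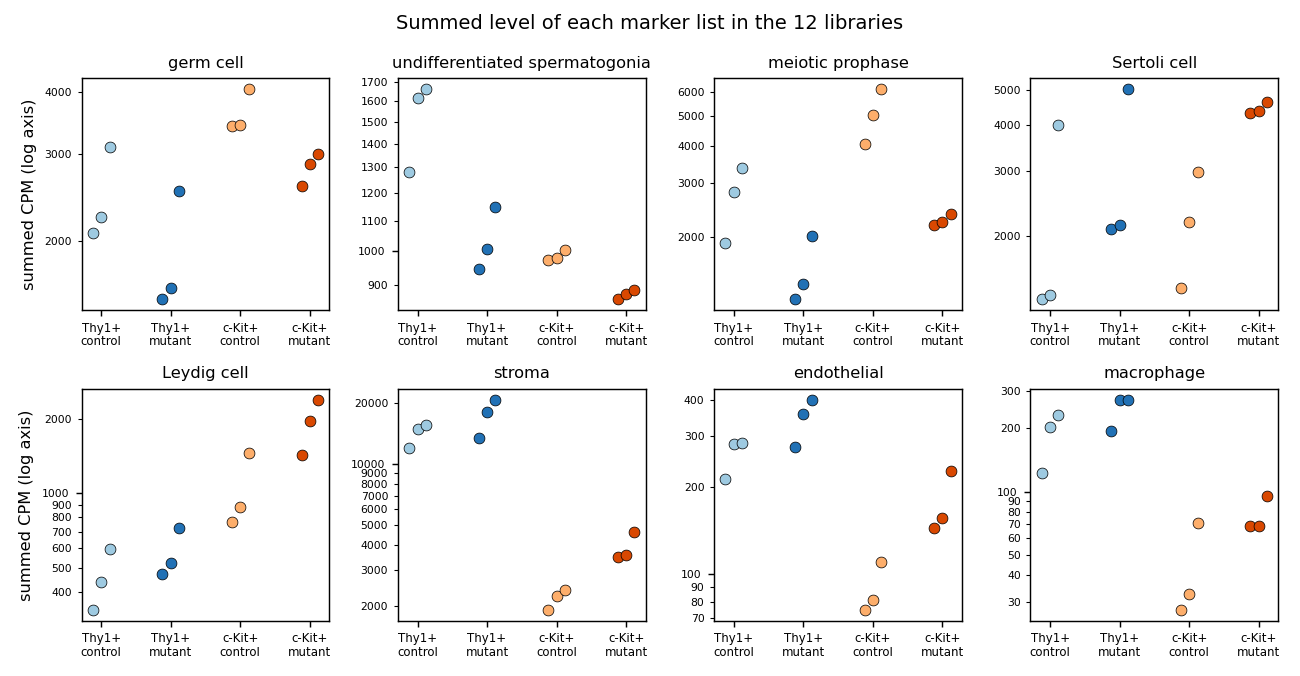
Summed TMM-scaled CPM (log axis) of cell type marker lists in each of the 12 libraries, by group, with the points of a group in order of level. Stromal markers are at 1917 to 2411 CPM in c-Kit+ control and 3492 to 4613 CPM in c-Kit+ CHD8 CKO libraries, and the Thy1+ replicate 1 libraries are highest in Sertoli cell markers, at 4010 and 5024 CPM.

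Immediate early genes, which are induced rapidly by stress and growth signals, had 23 of 24 members above 0 with a median of 0.38, and 0 of them reached an unadjusted p of 0.05 for the difference. In c-Kit+ cells 12 of the 24 rose at an FDR of 0.05, where 16.8% of all tested genes rose. Egr1 was at 1392, 873 and 1454 CPM in Thy1+ control, 2281, 1505 and 2193 in Thy1+ CHD8 CKO, 545, 264 and 316 in c-Kit+ control, and 1000, 761 and 675 in c-Kit+ CHD8 CKO libraries, with mutants above controls in both populations. As differences of mean CPM 17 of the 24 lay below 0. Integrin and laminin genes had 32 of 40 above 0 with a median of 0.45, against 62.0% and 0.08 over all tested genes. In that list Lama4, a laminin chain of vessels, rose in c-Kit+ cells by 1.11 (FDR = 0.00174) and Itga3 fell in Thy1+ cells by 0.75 (FDR = 0.0196).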

How the data were processed

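Per the submitters' processing notes and the methods, Trimmomatic 0.39 was used for trimming and HISAT2 2.1.0 for alignment to mm10. The authors then deposited a raw count per gene and library, made over RefSeq exons with featureCounts (version 2.0.3 in the file header), with no strand option and with reads rather than fragments counted. The ChIP-seq files of the series were not used here. Genes were named by their Entrez identifiers from RefSeq (GRCm38.p6), which matched 25275 of 27179 rows, and rows without a symbol took 0.511% to 0.776% of counts.

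Counts of all 12 libraries were fitted in edgeR 4.0.16 (R 4.3.3) with 4 group means, TMM scaling, filterByExpr by group and the quasi-likelihood F-test, adjusted by Benjamini-Hochberg over all tested genes. The count test was run on simulated counts with known differences in 200 genes. Any simulated replicate shift was common to all 4 groups, unlike in the real libraries, so the simulation could not decide the choice of block. Named genes were Chd8, Thy1 and Kit, the 10 lowest p in each direction whose mean log2 CPM reached 1, the 5 highest and the 5 lowest differences called with a block within each population, the 5 lowest p with opposite effects, up to 4 members per list with the lowest p, genes that the study names and some genes chosen after their values were seen. The members, lists and sequence patterns were chosen with earlier results of these data known. Alternatives were 3 replicate blocks, DESeq2 1.42.0, limma 3.58.1 voom, other scalings and filters, and omission of each library. Replicate numbers were tested as pairs by the correlation of deviations from group means.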

Additional observations from a re-analysis of the deposited data

Results flagged for a closer look

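For 8 of the named genes all 9 mutant-to-control ratios were below 1 in a population and all 9 were above 1 in the other, and none of them passed an FDR of 0.05 for the difference itself in edgeR without a block. Over all tested genes, 54 (0.3%) were lower in Thy1+ and higher in c-Kit+ cells in this way, and 6 (0.0333%) the reverse. With the block shared by all libraries, all but Stat2 (FDR = 0.082) passed, from 0.016 for Fst to 0.031 for Ctsw. With the block within each population all 8 passed, and with the block within each genotype Fst, Large2 and Igfbp5 did. Foxi3 and Tubg2 were named because the block within each population called them, and the others except Stat2 for a low p of the difference. Passing with a block was therefore partly set by how these genes were chosen. The log2 difference (c-Kit+ effect minus Thy1+ effect) was 1.25 for Fst, 1.32 for Large2, 0.98 for Igfbp5, 1.08 for Parp14 and 1.71 for Tubg2, each at an FDR of 0.235. It was -2.01 for Ctsw and 1.95 for Foxi3, a forkhead factor, at an FDR of 0.282, and 0.38 for Stat2, an interferon signal transducer looked at after its value was seen, at an FDR of 0.387. Tubg2, a gamma-tubulin, was at 13.3, 10.1 and 7.08 CPM in Thy1+ control, 5.11, 4.99 and 4.8 in Thy1+ CHD8 CKO, 1.19, 0.973 and 1.16 in c-Kit+ control, and 1.62, 2.09 and 1.59 in c-Kit+ CHD8 CKO libraries. It fell in Thy1+ cells (FDR = 0.0383), and its effect in c-Kit+ cells was 0.68 (FDR = 0.0628). Groups of 3 libraries are too small for a test of single outlying libraries.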

How the results depend on the processing

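The direction of the named genes held under most alternatives, but the number of genes called did not. Most of the named genes were chosen for a low p of this same difference, and every alternative reused most of the same libraries. A kept direction was thus partly set by that choice. Of 3514 alternative values for 153 named genes, 3260 kept their direction and side of the threshold, 200 kept their direction and passed it, and 54 in 26 genes changed sign, and the cause was not tested. A replicate block shared by all libraries called 422 genes above 0 and 24 below at an FDR of 0.05 (2636 and 562 at an unadjusted p below 0.05), a block within each population 1710 and 202 (3471 and 843), and a block within each genotype 46 and 8 (2333 and 537), with 53 genes called under all 3. Correlations of same-numbered libraries exceeded 0.1 in 10 of 18, 4 of 6 and 4 of 6 pairs for these blocks, in the same order, so the numbers did not count as a pairing, although all 3 pairs in Thy1+ cells and all 3 pairs of control libraries exceeded it and, within each population, every control library correlated best with the mutant library of its own number. DESeq2 called 44 and 20 (707 below at an unadjusted p), its size factors in edgeR gave 931 and 628 at an unadjusted p, no count filter gave 517 below, and a minimum difference of 0.5 left 182 below.

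With a library left out, calls at an FDR of 0.05 were 0 above and 0 to 1 below (the 1 without c-Kit+ control replicate 3). At an unadjusted p they ranged from 719 (without c-Kit+ CHD8 CKO replicate 3; 958 without Thy1+ control replicate 1, 986 without c-Kit+ CHD8 CKO replicate 1) to 1937 above, and from 199 (without c-Kit+ control replicate 2; 203 without Thy1+ control replicate 1) to 859 below (without Thy1+ control replicate 2; 503 without c-Kit+ control replicate 1, 495 without c-Kit+ CHD8 CKO replicate 3). Without both Thy1+ replicate 1 libraries, an alternative chosen after seeing the data, they were 1266 and 229, with 0 calls at an FDR of 0.05.

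Kit, near 0, was -0.0069 and -0.0054 with the population and genotype blocks, -0.056 with DESeq2, -0.0206 with voom, -0.056 with DESeq2 size factors and -0.018 without a filter. With a library left out, the range was -0.36 to 0.32 for Kit, -0.080 to 0.44 for Thy1, -0.012 to 0.77 for Hspa1b, -0.30 to 0.65 for Mcpt4, -0.72 to 0.11 for Cma1, -0.97 to 6.37 for Slc4a1, -0.13 to 0.085 for Kmt2a, -0.43 to 0.035 for Brca1 and -0.48 to 0.30 for Stra8. Without both Thy1+ replicate 1 libraries Thy1 was -0.05, Kmt2a 0.04 and Stra8 0.01. As differences of mean CPM, the sign changed for Thy1 (-1.81), Nr4a1 (-0.093), Egr1 (-316), Bag3 (-1.22), Hspa1b (-46.4), Myl9 (-1.71), Lmod1 (-1.24), Des (-12.8), Col3a1 (-113), Col1a2 (-341), Dcn (-246), Pdgfra (-239), Cdh5 (-34.3), Tyrobp (-1.003), Ptprc (-1.82), Csf1r (-1.62), Cma1 (3.57), Hba-a2 (-0.032), Slc4a1 (-0.23), Col6a6 (-3.40), Col6a1 (-5.07) and Kmt2a (7.61), as follows from subtracting levels in place of logarithms.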

Other observations

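A few immune genes with an unadjusted p below 0.05 for the difference are given here, chosen after their values were seen and not as members of a list. Oasl2, an interferon-induced gene, was at 18.3, 17.7 and 13.5 CPM in Thy1+ control and 8.31, 9.2 and 6.9 in Thy1+ CHD8 CKO libraries, and at 7.47 to 8.74 CPM in all c-Kit+ libraries. It fell by 1.02 in Thy1+ cells (FDR = 0.00995), and its difference was 0.94 ± 0.22 (SE). Tlr3, a receptor for double-stranded RNA, was at 11.1 to 13.8 CPM in all Thy1+ libraries, 3.9, 3.12 and 3.08 in c-Kit+ control and 9.21, 6.23 and 8.08 in c-Kit+ CHD8 CKO libraries. It rose by 1.22 in c-Kit+ cells (FDR = 0.00215), with a difference of 1.19 ± 0.24. Trim12c and Parp10 also rose in c-Kit+ cells, by 1.04 (FDR = 0.00327) and 0.73 (FDR = 0.0233), with differences of 1.23 ± 0.26 and 1.21 ± 0.29.

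H2-K1, a class I gene of the major histocompatibility complex, had a difference below 0. It was at 66.5, 117 and 107 CPM in Thy1+ control, 58.7, 51.8 and 65 in Thy1+ CHD8 CKO, 144, 228 and 231 in c-Kit+ control, and 58.5, 49.9 and 61.5 in c-Kit+ CHD8 CKO libraries. It fell by 1.83 in c-Kit+ cells (FDR = 0.00146), its Thy1+ effect was -0.73 (FDR = 0.0982), and the difference was -1.10 ± 0.30. H2-D1, another class I gene, fell by 0.85 in c-Kit+ cells (FDR = 0.00402) with a difference of -0.75 ± 0.23, and Cfb, a complement factor of the same region of chromosome 17, fell by 1.05 (FDR = 0.00327) with a difference of -0.93 ± 0.26. Reads of class I genes can be shared with close paralogs, so their separate levels are uncertain. None of these differences passed an FDR of 0.05 in edgeR without a block.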
